A study of Canis lupus familiaris with 8 samples.

Results

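Genes of the potassium channel family were followed in dog retina that was either fixed in paraformaldehyde (PFA, a crosslinking fixative used in histology) or frozen fresh. The members are the genes of the deposited expression table whose symbol starts with KCN, followed by letters and a number, other than KCNV2, KCNJ10 and KCNJ13. This rule took 60 of 12824 genes. By symbol they comprised 31 voltage-gated pore subunits, 9 inward rectifiers, 5 two-pore channels, 4 calcium-activated channels, the sodium-activated channel KCNT1 and 10 accessory subunits. All 60 symbols matched a protein-coding gene of the dog assembly UU_Cfam_GSD_1.0, and a further 30 symbols of that gene table that fit the same name rule were not analysed here.

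Potassium channels are membrane pores that let potassium ions leave or enter a cell and thereby set its resting potential and the shape of its electrical responses. Voltage-gated channels open on depolarisation, inward rectifiers pass current best near or below the resting potential, two-pore channels carry a steady leak, and calcium-activated channels couple calcium entry to repolarisation. In the retina, photoreceptor inner segments use voltage-gated channels to shape the light response, Müller glia clear potassium through inward rectifiers, and inner neurons use several voltage-gated families to fire and to follow fast signals.

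All animals were wild-type male Beagles of 31 weeks. In the PFA-fixed group (4 libraries), left eyes were placed for 3 h in 4% PFA and then for 24 h in 2% PFA, taken through 15% and 30% sucrose and embedded in a freezing medium, and their RNA came from a kit for paraffin-embedded tissue after 18 h of proteinase K at 56 °C. In the fresh-frozen group (4 libraries), right eyes were embedded with neither fixation nor sucrose, and their RNA came from a micro-scale column kit. Fixation, side of the eye and extraction kit therefore changed together, and their parts cannot be told apart. Which left and right eyes belong to the same dog is not in the labels, and a p-value here reflects only how far the libraries of a group scatter.

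Values are log2 CPM, in which CPM are counts scaled to a common library total, and are not corrected for transcript length, so levels are not compared between genes. The effective depth, estimated from the spacing of low values, was 12800000 ± 1860000 reads in PFA-fixed and 22100000 ± 529000 reads in fresh-frozen libraries (SD, n = 4 each). Rod photoreceptor marker genes, all 20 measured, summed to between 46300 and 51800 CPM in PFA-fixed and between 41400 and 48000 CPM in fresh-frozen libraries. Lists of tissue around the neural retina were lower after fixation. The retinal pigment epithelium list (9 genes) summed to between 108 and 171 CPM against between 1670 and 2620 CPM, and the list of sclera and fibroblasts (8 genes) to between 184 and 210 CPM against between 7650 and 10800 CPM, PFA-fixed against fresh-frozen. Fresh-frozen replicate 1 stood apart in the oligodendrocyte list (8 genes), with a mean of 6.11 log2 CPM against between 3.54 and 3.60 in the other fresh-frozen libraries. PFA-fixed replicate 4 and fresh-frozen replicate 3 were the highest of their group in all 8 measured ganglion cell markers.

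Changes are log2 differences of PFA-fixed over fresh-frozen, positive where fixed retina was higher, and a change is called when the limma p-value adjusted over all 12824 genes is under 0.05. Of the 60 potassium channel genes, 15 were higher in PFA-fixed retina, 17 were lower and 28 were not called. The 32 called members make up 53.3% of the family, beside 68.7% of all genes tested. The share called higher was 25% beside 33.9% of all genes, and the share called lower 28.3% beside 34.7% of all genes. The median change was -0.10 for the family and -0.02 over all genes. In 27 members (45.0%) the groups did not overlap, which held for 62.9% of all genes. In bulk tissue, fewer cells of a type and less RNA per cell cannot be told apart.

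Rises of at least 2-fold were few. The two-pore gene KCNK6 rose by 1.97, and KCNH8 by 1.03. The change of KCNH8 was 0.31 and not called when libraries were centred on the median of rod genes. Centred on their mean, it was 0.68 and called. Of all genes, 10.6% rose and 13.7% fell by that much. Falls of at least 2-fold were called for 8 members, led by the inward rectifier KCNJ8 (-2.69), the voltage-gated KCNQ1 (-2.37) and the accessory gene KCNMB1 (-2.37). Within 1.5-fold either way lay 34 of 60 members (56.7%) and 55.5% of all genes.

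The balance of rises and falls depended on how libraries were scaled to each other. With quantile normalization 21 members were higher and 9 lower (35% and 15%), beside 38% and 31.3% of all genes. With each library centred on its median over all genes 17 were higher and 14 lower (28.3% and 23.3%), beside 37.8% and 31.2% of all genes. Centring on the mean of the 20 rod genes gave 8 higher and 28 lower (13.3% and 46.7%), beside 17.8% and 51.6% of all genes. Centring on their median gave 2 higher and 36 lower (3.33% and 60%), beside 8.06% and 67.1% of all genes, so the counts of all genes shifted in the same direction. Those centrings moved the median change of all genes to -0.37 and -0.74, and changes under them are read relative to these shifts. Under all of these scalings KCNK6 was called higher, and KCNA5, KCNIP4, KCNJ8, KCNK10, KCNMB1, KCNN1, KCNN3, KCNQ1 and KCNQ5 were called lower. The direction of KCNQ5 was fixed by the limit for listing genes, given below, and that of KCNQ1 was largely so. Without PFA-fixed replicate 4 and fresh-frozen replicate 3 together, a choice made after seeing the data, 15 members were higher and 17 lower.

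**Figure D1:**
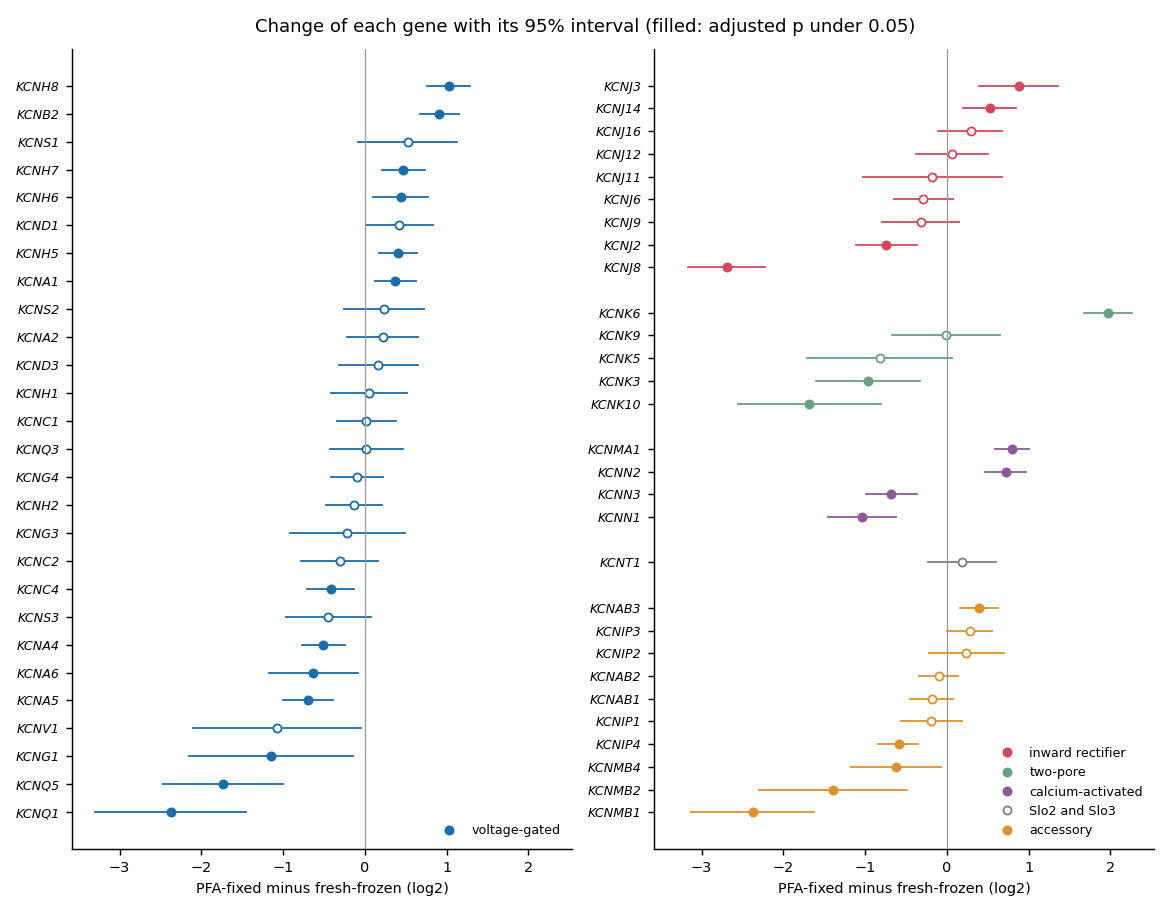
Change of each of 56 genes, PFA-fixed minus fresh-frozen on the log2 scale (x axis), with its 95% interval from limma, sorted within classes. Filled points have an adjusted p under 0.05. Of the genes drawn, KCNK6 lies highest at 1.97, while KCNJ8, KCNQ1 and KCNMB1 lie lowest. Most filled rises end or turn when libraries are centred on the median of rod genes. With their mean, KCNK6, KCNH8, KCNB2, KCNMA1 and KCNN2 stay called higher.

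The members called higher all had a mean level of at least 3 log2 CPM. Of 21 members with a mean under 3 log2 CPM over the 8 libraries, none was called higher and 10 were called lower with limma, and their median change was -0.82. At an unadjusted p under 0.05, 1 of the 21 was higher, KCND1 (0.42), which limma without its intensity trend called. The 8 falls of at least 2-fold were all among these 21. Of 39 members at or above that level, 15 were higher and 7 lower, with a median change of 0.22. Over all genes, 25.3% of those under 3 log2 CPM were higher and 37.5% lower, and 36.2% and 34.0% of those above it. The table lists only genes over 1 CPM in at least 4 libraries, so a member near that limit can have entered through the group in which it was high. KCNQ5 is such a case, as it lay under 1 CPM in all 4 fixed libraries. In KCNQ1, KCNMB2, KCNK5 and KCNV1, 3 fixed libraries lay under 1 CPM, so most values that let them in were fresh-frozen.

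**Figure D2:**
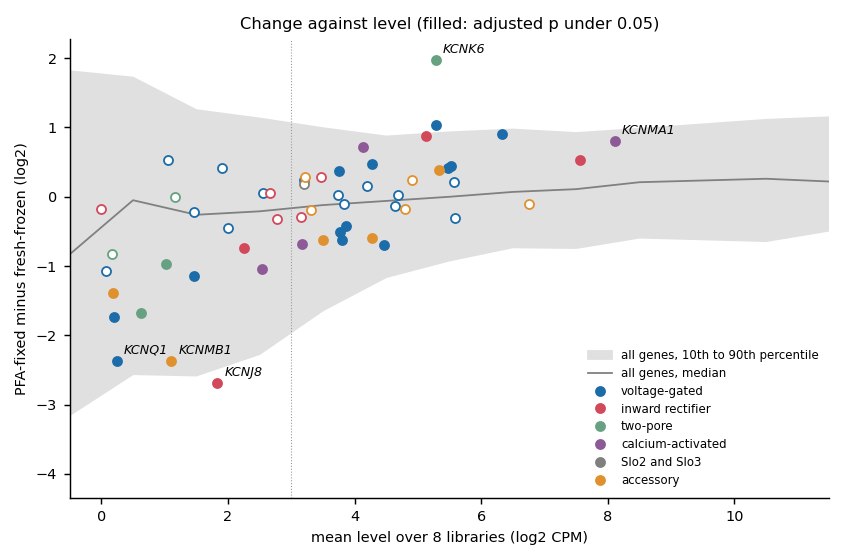
Change (y axis, PFA-fixed minus fresh-frozen, log2) against the mean level over 8 libraries (x axis, log2 CPM) for 56 genes by class, filled where the adjusted p is under 0.05. The grey line and band are the median and the 10th to 90th percentile of all genes by level. KCNK6 at 1.97 and KCNH8 at 1.03 lie above the band, and KCNJ8 at -2.69 lies below it.

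Among voltage-gated genes, 9 of 31 were higher and 7 lower (29.0% and 22.6%, beside 33.9% and 34.7% of all genes). Their median change was 0.02. The KCNQ genes encode Kv7 channels, which open slowly and hold excitability down. KCNQ1, the subunit of the slow delayed rectifier of heart muscle, was at -1.74, -1.24, 0.00 and -0.80 log2 CPM in fixed libraries, against 2.14, 1.32, 1.53 and 0.73 in fresh-frozen ones. All fixed values lay below all fresh-frozen values, and they correspond to between about 2.27 and 13.6 reads, against between about 35.3 and 92.5 reads. KCNQ1 fell by 2.37 ± 0.42 (SE; limma adjusted p = 0.000361). With a pseudocount of 1 CPM, which damps changes of such low genes, the change was -1.27 and still called. In KCNQ1, 3 fixed values lay under 1 CPM and the other at that limit, so it was listed mainly through its fresh-frozen values. Its direction was thus largely fixed in advance, and its p-value is not taken as support for a fall. KCNQ5 was at -0.71, -0.69, -0.96 and -0.31 log2 CPM in fixed libraries, against 0.42, 1.03, 1.72 and 1.09 in fresh-frozen ones. Here too the groups were apart, with a change of -1.73 ± 0.34 (SE; limma adjusted p = 0.000661), or -0.94 with a pseudocount of 1 CPM. With all 4 fixed values under 1 CPM, KCNQ5 could be listed only with all 4 fresh-frozen values over that limit. Its separation and direction were thus fixed in advance, and its p-value is no support for a fall. KCNQ3, a subunit of the M current of neurons, differed by 0.02 (95% interval -0.43 to 0.47) and was not called.

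The KCNB genes encode Kv2 delayed rectifiers. KCNB2 was at 6.77, 6.68, 6.66 and 7.02 log2 CPM in fixed libraries, against 5.70, 5.83, 6.16 and 5.79 in fresh-frozen ones. Its groups were apart, and KCNB2 rose by 0.91 ± 0.11 (SE; limma adjusted p = 1.59e-05). Its change was 0.56 and called with the rod list mean, and 0.19 and not called with the rod list median. The subunits that do not conduct alone but modify Kv2 channels were mostly not called. KCNG1 fell by 1.15 ± 0.46 (SE; limma adjusted p = 0.0410) from overlapping values, between 0.03 and 1.51 log2 CPM in fixed and between 1.09 and 3.22 in fresh-frozen libraries. That call ended without PFA-fixed replicate 1 or 2 or fresh-frozen replicate 3 or 4, with changes between -1.47 and -0.76 without single libraries, and likewise after quantile normalization (-0.79) and centring on the median of all genes (-1.07). The other silent subunits KCNG3, KCNG4, KCNS1, KCNS2, KCNS3 and KCNV1 were not called, with changes between -1.07 for KCNV1 and 0.53 for KCNS1. KCNV1 was called lower without PFA-fixed replicate 1 (-1.34) or fresh-frozen replicate 2 (-1.26), and KCNS1 higher without PFA-fixed replicate 1 (0.74).

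The KCNH genes encode the EAG, ERG and ELK channels, and 4 of the 6 measured were higher (66.7%, beside 33.9% of all genes). KCNH8, an ELK channel, was at 5.76, 5.73, 5.83 and 5.84 log2 CPM in fixed libraries, against 4.52, 4.98, 4.54 and 5.02 in fresh-frozen ones. The fixed values lay close together and all above the fresh-frozen ones. KCNH8 rose by 1.03 ± 0.12 (SE; limma adjusted p = 1.38e-05). Its change was 0.68 and called with the rod list mean, and 0.31 and not called with the rod list median. The EAG gene KCNH5 rose by 0.41 and the ERG genes KCNH6 and KCNH7 by 0.44 and 0.47, changes that were -0.31, -0.28 and -0.25 with the rod list median. The call of KCNH6 ended without PFA-fixed replicate 4 or fresh-frozen replicate 1 or 2. KCNH1, the other EAG gene, and KCNH2, the ERG channel of cardiac repolarisation, differed by 0.05 (95% interval -0.42 to 0.51) and -0.13 (-0.47 to 0.21) and were not called.

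Genes of the Kv1 channels went both ways. Of 5 KCNA genes, KCNA4, KCNA5 and KCNA6 fell by 0.51, 0.69 and 0.63, and KCNA1, an axonal channel, rose by 0.37 (-0.34 with the rod list median). KCNA2, its common partner in axons, was not called (0.22, 95% interval -0.22 to 0.65), but was higher without fresh-frozen replicate 3 (0.42). The fall of KCNA6 had a limma adjusted p of 0.0379 and ended without PFA-fixed replicate 2 or 3 or fresh-frozen replicate 1, 3 or 4, with changes between -0.89 and -0.41 without single libraries. Among the KCNC genes, which serve fast firing, KCNC4 fell by 0.42 (limma adjusted p = 0.0146), and was no longer called without PFA-fixed replicate 4 and fresh-frozen replicate 3 together (-0.31, limma adjusted p = 0.0629). After quantile normalization KCNA4 (-0.29), KCNA6 (-0.41) and KCNC4 (-0.22) were not called, and after centring on the median of all genes KCNA6 (-0.55) was not. KCNC1 and KCNC2 differed by 0.02 and -0.31, and the A-type genes KCND1 and KCND3 by 0.42 and 0.16, none of them called, although KCND1 was called without PFA-fixed replicate 2 (0.50).

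**Figure D3:**
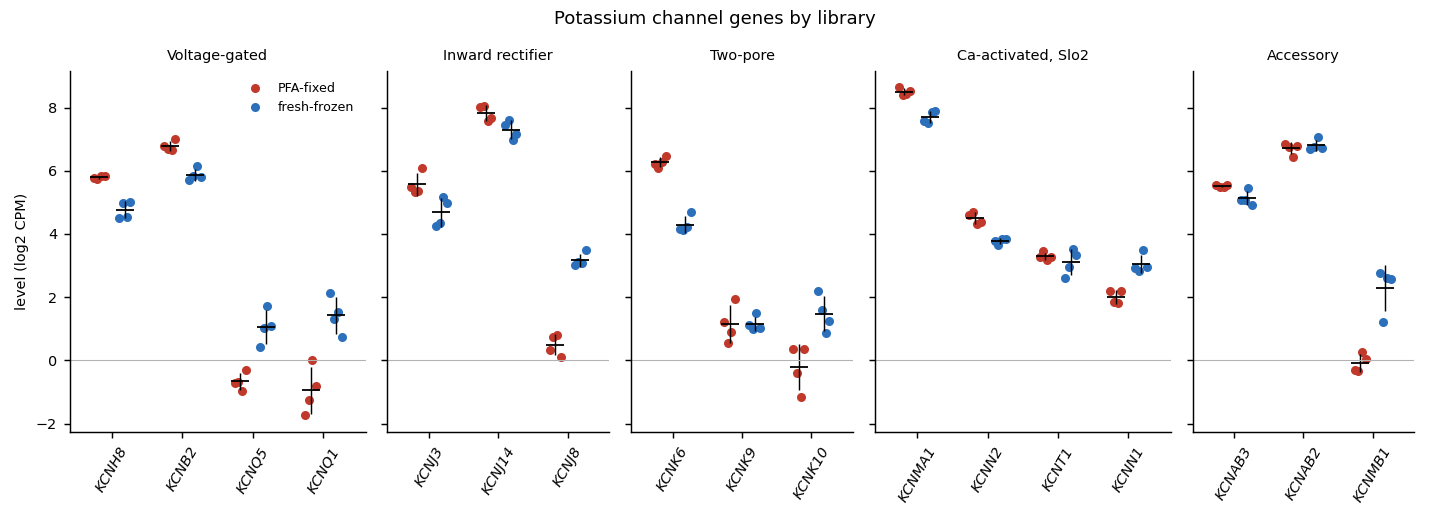
Level (y axis, log2 CPM) of genes named by the rule for printed values, by class, in each PFA-fixed (red) and fresh-frozen (blue) library, with the mean (bar) and SD (line), n = 4 each. KCNJ8 sits between 0.11 and 0.80 in PFA-fixed and between 3.03 and 3.48 in fresh-frozen libraries.

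Of 9 inward rectifiers, 2 were higher and 2 lower (22.2% each, beside 33.9% and 34.7% of all genes), with a median change of -0.18. KCNJ8 encodes the Kir6.1 pore of ATP-sensitive channels, known from pericytes and smooth muscle of vessels. It was at 0.32, 0.73, 0.80 and 0.11 log2 CPM in fixed libraries, against 3.03, 3.11, 3.08 and 3.48 in fresh-frozen ones. More than 2 units separated the groups, and KCNJ8 fell by 2.69 ± 0.22 (SE; limma adjusted p = 5.09e-07), a 6.45-fold lower level. Its sulfonylurea receptor partner ABCC9 fell by 2.00 ± 0.21 (SE; limma adjusted p = 5.93e-06). The pericyte and smooth muscle list was called lower in all 8 measured genes, beside 34.7% of all genes. It summed to between 446 and 562 CPM in fixed and between 1780 and 2550 CPM in fresh-frozen libraries. Among these genes, CNN1 was under 1 CPM in all fixed libraries, so its direction was fixed by the limit for listing genes. None stood at the lowest value of the table. Other lists fell too, so this was not particular to pericytes and smooth muscle. Called lower were 8 of 9 endothelial cell genes (median change -2.66) and 7 of 8 microglia and macrophage genes (-2.79). The part of any of these cells in the fall of KCNJ8 was not tested. KCNJ11, the Kir6.2 pore, was not called (-0.18, 95% interval -1.03 to 0.67), while its partner ABCC8 rose by 1.10 (limma adjusted p = 4.11e-05). The change of ABCC8 was 0.76 and called with the rod list mean, and 0.38 and not called with the rod list median.

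The rectifiers opened by G proteins changed unequally. KCNJ3 (GIRK1), which needs a partner to reach the membrane, was at 5.49, 5.33, 5.36 and 6.09 log2 CPM in fixed libraries, against 4.25, 4.36, 5.17 and 4.99 in fresh-frozen ones. The groups did not overlap, and KCNJ3 rose by 0.88 ± 0.22 (SE; limma adjusted p = 0.00395), with 0.53 and 0.16 and no call with the rod list mean and median. KCNJ6 (GIRK2) and KCNJ9 (GIRK3) differed by -0.29 (95% interval -0.65 to 0.07) and -0.32 (-0.79 to 0.15) and were not called. Among the strong rectifiers, KCNJ14 (Kir2.4) was at 8.03, 8.05, 7.58 and 7.66 log2 CPM in fixed libraries, against 7.46, 7.62, 6.96 and 7.17 in fresh-frozen ones. The ranges overlapped in this gene, and it rose by 0.53 ± 0.15 (SE; limma adjusted p = 0.00744), a change that was -0.19 with the rod list median. KCNJ2 (Kir2.1) fell by 0.74 ± 0.17 (SE; limma adjusted p = 0.00224), with -0.34 and no call after quantile normalization. KCNJ12 (Kir2.2) was not called, at 0.06, and in human has a near-identical copy with which reads can be shared.

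Among two-pore genes, KCNK6 rose and the others were at low levels. KCNK6 (TWIK-2) was at 6.23, 6.08, 6.29 and 6.48 log2 CPM in fixed libraries, against 4.16, 4.13, 4.21 and 4.69 in fresh-frozen ones. Every fixed value exceeded every fresh-frozen value, and KCNK6 rose by 1.97 ± 0.13 (SE; limma adjusted p = 1.13e-07), a 3.92-fold higher level. With the rod list median the change was 1.25 and still called. Its measured neighbours in the gene table, moved in opposite directions, CATSPERG by 1.11 (limma adjusted p = 0.00260) and YIF1B by -0.55. KCNK10 (TREK-2), a channel gated by stretch and lipids, was at 0.36, -0.39, -1.16 and 0.35 log2 CPM in fixed libraries, against 2.18, 1.58, 0.88 and 1.24 in fresh-frozen ones. KCNK10 fell by 1.68 ± 0.40 (SE; limma adjusted p = 0.00273). The acid-sensitive KCNK3 (TASK-1) fell by 0.97 (limma adjusted p = 0.0106), with -0.62 and no call after quantile normalization. KCNK9 (TASK-3) was at 1.23, 0.54, 0.90 and 1.93 log2 CPM in fixed libraries, against 1.11, 1.0, 1.49 and 1.04 in fresh-frozen ones. Its values were mixed between the groups, with a change of -0.01 and a 95% interval of -0.67 to 0.65. KCNK5 (TASK-2) was not called at -0.82 (95% interval -1.71 to 0.06), and was called without PFA-fixed replicate 4 (-1.12) or without fresh-frozen replicate 3 (-1.14).

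All 4 calcium-activated genes were called, 2 in each direction, beside 68.7% of all genes (33.9% higher and 34.7% lower). With 4 genes, no trait of the class can be read from this. KCNMA1, the pore of the large-conductance BK channel, was at 8.65, 8.40, 8.43 and 8.54 log2 CPM in fixed libraries, against 7.57, 7.50, 7.86 and 7.89 in fresh-frozen ones. The groups were apart, and KCNMA1 rose by 0.80 ± 0.10 (SE; limma adjusted p = 1.61e-05). Its change was 0.45 and called with the rod list mean, and 0.08 and not called with the rod list median. The small-conductance genes differed among themselves. KCNN2 (SK2) was at 4.60, 4.71, 4.33 and 4.38 log2 CPM in fixed libraries, against 3.79, 3.64, 3.85 and 3.84 in fresh-frozen ones. KCNN2 rose by 0.72 ± 0.12 (SE; limma adjusted p = 0.000153). Its change was 0.38 and called with the rod list mean, and 0.00 and not called with the rod list median. KCNN1 (SK1) was at 2.19, 1.84, 1.81 and 2.20 log2 CPM in fixed libraries, against 2.92, 2.84, 3.48 and 2.94 in fresh-frozen ones. KCNN1 thus went the other way with groups that did not overlap, and fell by 1.04 ± 0.19 (SE; limma adjusted p = 0.000421). KCNN3 (SK3) fell by 0.68 ± 0.14 (SE; limma adjusted p = 0.00132). KCNT1, a sodium-activated relative of KCNMA1, was at 3.26, 3.46, 3.18 and 3.28 log2 CPM in fixed libraries, against 2.62, 2.95, 3.53 and 3.33 in fresh-frozen ones. It was not called, with a change of 0.19 and a 95% interval of -0.23 to 0.60.

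Of the 10 accessory genes, 1 was higher and 4 lower (10% and 40%, beside 33.9% and 34.7% of all genes). Their median change was -0.18. All 3 measured BK beta subunits were called lower, beside 34.7% of all genes. KCNMB1, the beta subunit of smooth muscle, was at -0.30, -0.35, 0.27 and 0.03 log2 CPM in fixed libraries, against 2.75, 1.21, 2.61 and 2.57 in fresh-frozen ones. The groups did not overlap, although fresh-frozen replicate 2 lay well below the other fresh-frozen libraries, and KCNMB1 fell by 2.37 ± 0.35 (SE; limma adjusted p = 7.40e-05), or by 2.73 without that library. The falls of the pericyte and smooth muscle list and of the other lists, given above, went with it and their part was not tested. KCNMB2 fell by 1.39 ± 0.41 (SE; limma adjusted p = 0.0103), with -0.89 and no call after quantile normalization. Its groups overlapped, and 3 fixed libraries lay under 1 CPM, so KCNMB2 was listed mainly through its fresh-frozen values and its direction was largely fixed in advance. The fixed values correspond to between about 4.67 and 14.1 reads. KCNMB4, the beta subunit known from neurons, fell by 0.62 ± 0.25 (SE; limma adjusted p = 0.0463), and this call ended without any single library other than PFA-fixed replicate 3 and fresh-frozen replicate 3 (changes between -0.87 and -0.47), and likewise after quantile normalization (-0.36) and centring on the median of all genes (-0.54).

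Beta subunits of Kv1 channels and the calcium sensors of Kv4 channels mostly stayed uncalled. KCNAB2 was at 6.85, 6.76, 6.43 and 6.80 log2 CPM in fixed libraries, against 6.68, 6.76, 7.07 and 6.72 in fresh-frozen ones, with a change of -0.10 and a 95% interval of -0.34 to 0.14. KCNAB3 was at 5.56, 5.49, 5.50 and 5.54 log2 CPM in fixed libraries, against 5.08, 5.07, 5.45 and 4.93 in fresh-frozen ones. All its fixed values lay above, if narrowly above fresh-frozen replicate 3, and KCNAB3 rose by 0.39 ± 0.10 (SE; limma adjusted p = 0.00581), a change that was -0.33 with the rod list median. KCNIP4, one of 4 genes of Kv channel-interacting proteins, fell by 0.59 ± 0.11 (SE; limma adjusted p = 0.000566), and KCNIP1, KCNIP2 and KCNIP3 were not called, at -0.19, 0.24 and 0.28. Without fresh-frozen replicate 3, KCNIP2 was called higher (0.46) and KCNAB1, otherwise at -0.18, lower (-0.29). In the gene table KCNMB1 overlaps KCNIP1, KCNAB3 overlaps CNTROB, KCNH1 overlaps HHAT and KCNH7 overlaps GCA, so the values of these genes are uncertain where reads could be split, as the strand setting of the counting is not given in the sources used here.

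Differences between 2 genes of one library are unaffected by centring a library on one value, though not by quantile normalization, and they are given for 8 subunit pairs known to assemble or to stand in for each other, chosen with the results known and without a test. KCNMA1 minus KCNMB1 lay between 8.16 and 8.95 in fixed and between 4.82 and 6.29 in fresh-frozen libraries. KCNMA1 was also farther above the other beta genes after fixation, by 2.19 more for KCNMB2 and by 1.42 more for KCNMB4.

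Within the rectifiers opened by G proteins, KCNJ3 minus KCNJ6 lay between 2.39 and 2.81 in fixed and between 1.15 and 1.61 in fresh-frozen libraries, and KCNJ3 minus KCNJ9 between 2.49 and 3.49 against between 1.34 and 2.06. None of these ranges overlapped. In other pairs they did. KCNA1 minus KCNA2 averaged -1.74 ± 0.24 in fixed and -1.90 ± 0.39 in fresh-frozen libraries (SD, n = 4 each). KCNJ8 minus ABCC9 averaged -2.11 ± 0.78 in fixed and -1.42 ± 0.32 in fresh-frozen libraries. KCNJ16 minus KCNJ10, the glial Kir5.1 and Kir4.1, averaged -2.61 ± 0.33 and -2.90 ± 0.18, and neither gene was called, although KCNJ16 was higher without PFA-fixed replicate 2 or fresh-frozen replicate 1. Of genes outside the members, the silent subunit gene KCNV2 of photoreceptors fell by 1.03 ± 0.08 (SE; limma adjusted p = 2.36e-07), and KCNJ13, the Kir7.1 channel of the pigment epithelium, fell by 3.51 ± 0.21 (SE; limma adjusted p = 4.12e-08).

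**Figure D4:**
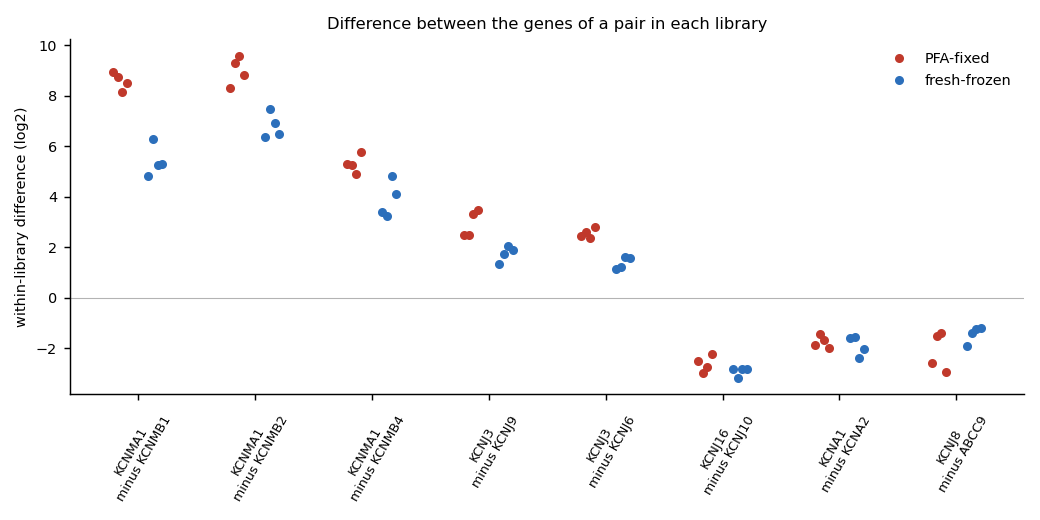
Difference in log2 CPM between the genes of a pair (y axis) in each PFA-fixed (red) and fresh-frozen (blue) library, n = 4 each, for 8 pairs. KCNJ3 minus KCNJ6 sits between 2.39 and 2.81 in PFA-fixed and between 1.15 and 1.61 in fresh-frozen libraries, whereas KCNA1 minus KCNA2 overlaps.

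The median spread between replicates of a group was larger in these genes than over all genes. The median SD of a member was 0.26 in PFA-fixed and 0.27 in fresh-frozen libraries, beside 0.15 and 0.16 over all genes. Among members with a mean of at least 3 log2 CPM it was 0.17 and 0.23, beside 0.12 and 0.14 for all genes at that level. Members also lay lower, with a median level of 3.74 log2 CPM beside 4.92 for all genes. Above that limit the median levels were 4.46 and 5.44, so levels were not matched in either comparison. Much of the spread was shared between voltage-gated genes. PFA-fixed replicate 4 was the highest of its group in 20 of 31 voltage-gated genes (64.5%), beside 28.1% of all genes, and fresh-frozen replicate 3 in 21 of 31 (67.7%), beside 26.6% of all genes. The median deviation of the voltage-gated genes from their group mean was 0.23 in PFA-fixed replicate 4 and 0.34 in fresh-frozen replicate 3. The same libraries held the highest value of their group in all 8 ganglion cell markers, with median deviations of 0.42 and 0.64. Amacrine cell markers were highest in PFA-fixed replicate 4 in 4 of 8 genes and in fresh-frozen replicate 3 in 5 of 8. The cone photoreceptor list (9 genes) had its highest means there too. It was at 6.75 log2 CPM in PFA-fixed replicate 4, against between 6.20 and 6.46 in the other fixed libraries. In fresh-frozen replicate 3 it was at 6.70, against between 6.15 and 6.37. Müller glia and ON bipolar lists had their lowest means of each group in these libraries. The part of ganglion cell, cone or other cell content in this spread was not tested.

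**Figure D5:**
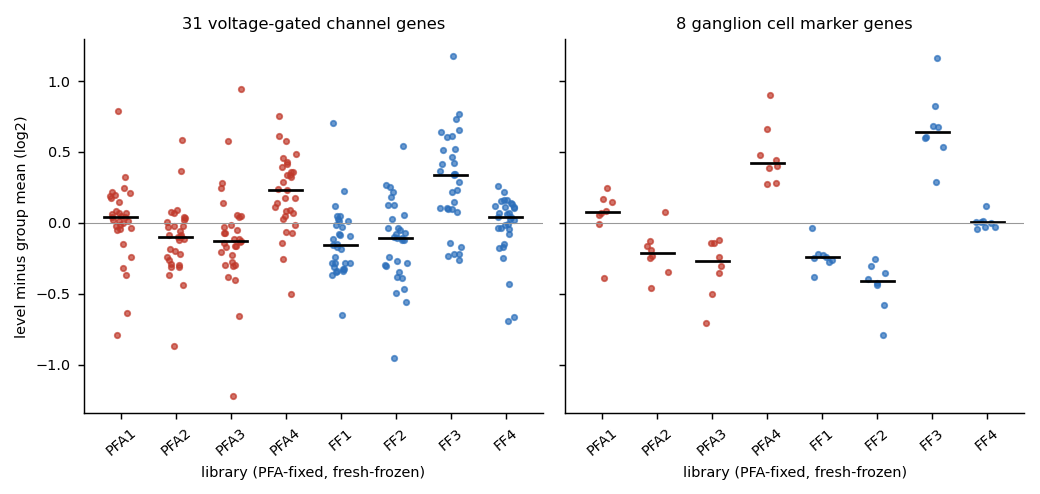
Level minus group mean (y axis, log2) of 31 voltage-gated channel genes (left) and 8 ganglion cell markers (right) in each library (x axis), with the median as a bar. PFA-fixed replicate 4 and fresh-frozen replicate 3 have the highest medians of their groups in both panels, at 0.23 and 0.34 on the left and 0.42 and 0.64 on the right.

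Genes around the family were counted from lists. Of 14 measured partner and anchoring genes of potassium channels, 5 were higher and 6 lower with limma (35.7% and 42.9%, beside 33.9% and 34.7% of all genes), with a median change of -0.34. Besides ABCC8 and ABCC9, the scaffold gene DLG2 changed by at least 2-fold, and rose by 1.14 ± 0.09 (SE; limma adjusted p = 3.53e-07). CNTNAP2, which anchors Kv1 channels in axons, fell by 0.97 (limma adjusted p = 1.95e-05). Of 21 measured genes of other cation channels of the same superfamily, including their beta subunits, 12 were higher and 4 lower (57.1% and 19%, beside the same shares of all genes), with a median of 0.36. Calcium channel genes CACNA1E, CACNA1F and CACNA1D rose by 1.65, 1.57 and 1.10. The change of CACNA1D was 0.75 and called with the rod list mean, and 0.38 and not called with the rod list median. The pacemaker channel gene HCN3 rose by 1.58. The sodium channel beta genes SCN2B and SCN3B fell by 0.88 and 0.83. Neither these lists nor the classes were tested against each other.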

How the data were processed

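Per the submitters' processing notes, the authors used kallisto 0.48.0, edgeR and limma, with no role or order given. The deposited table holds log2 CPM for 12824 genes named by symbol, with 8 columns of values that match the sample titles. All libraries share a lowest value of -3.12 log2 CPM (0.115 CPM, or 2.01 reads at the mean depth), so changes of genes near it are understated. The transcript reference, strand setting and filter of the authors: not given in the sources used here. Depth was estimated from the spacing of low values, searched from 0.03 to 0.15 CPM per read. Low values (at most 20 reads) came out whole within 0.1 of a read in 61.3% to 67.3% of cases, where evenly spread values would give 20%, so no count test was run, and the precision of low genes is known only roughly.

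Each gene was tested with limma-trend (limma 3.58.1 under R 4.3.3), group being the only term, with Benjamini-Hochberg adjustment over all genes. The step was tested on simulated data. Values in every library are given for the 2 members of each class with the highest mean and for called members that changed at least 2-fold without overlap. Some genes are counted in totals and not reported here by name. Members, classes, lists and pairs were chosen with earlier results of these data known. The settings varied were each library left out in turn, the replicate number as a block, 4 scalings, a minimum mean of 3 log2 CPM, a pseudocount of 1 CPM and limma without trend.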

Additional observations from a re-analysis of the deposited data

Results flagged for a closer look

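In 7 of 120 groups of 4 libraries (60 genes in both preparations), 1 library lay far from the other 3, where chance gives about 1 group in 20. KCNC4 was at 4.42 log2 CPM in fresh-frozen replicate 3, against between 3.94 and 4.00 in the others, and KCNN1 at 3.48 in the same library, against between 2.84 and 2.94. KCNK5 was at 0.64 in PFA-fixed replicate 4, against between -0.58 and -0.49, and at -0.36 in fresh-frozen replicate 3, against between 0.82 and 0.96. KCNK6 was at 4.69 in fresh-frozen replicate 4, against between 4.13 and 4.21, and KCNMB1 at 1.21 in fresh-frozen replicate 2, against between 2.57 and 2.75. KCNIP3 was at 3.55 in PFA-fixed replicate 2, against between 3.27 and 3.30. Of these libraries, PFA-fixed replicate 4 and fresh-frozen replicate 3 are those with the highest ganglion cell markers.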

How the results depend on the processing

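Without single libraries, between 14 and 17 members were higher and between 14 and 17 lower. The inward rectifier median then ran from -0.32 to -0.01. The counts of 15 higher and 17 lower were the same with the replicate number as a block. Same-numbered libraries did not deviate together throughout (correlations over genes between -0.0893 and 0.224), so the numbers were not taken as pairs. A pseudocount of 1 CPM gave 16 higher and 17 lower, and limma without trend 16 and 14.

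With the rod list mean, 8 members were higher and 28 lower, and with its median 2 and 36. Quantile normalization gave 9 lower, and the minimum mean level left 39 members with 7 lower. Partner genes called higher numbered 3 under the rod list mean and 1 under its median, and other cation channel genes 3 higher and 8 lower with the median. Class medians under these same centrings, mean first, were -0.32 and -0.70 for voltage-gated, -0.53 and -0.90 for inward rectifier, -1.17 and -1.54 for two-pore, -0.32 and -0.70 for calcium-activated and -0.53 and -0.90 for accessory genes. After quantile normalization they were 0.24, 0.37, -0.27 and 0.16 for the first 4 of these classes. With the minimum mean level they were 0.41 for inward rectifiers, 1.97 for two-pore genes (KCNK6 alone) and 0.72 for calcium-activated genes, as fewer genes were tested. With a pseudocount of 1 CPM they were -0.06 for inward rectifiers and -0.44 for two-pore genes.

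Some signs turned with the rod list median in genes called under it or on the deposited values. These were KCNA1 (-0.34), KCNAB3 (-0.33), KCNC1 (-0.70), KCNH1 (-0.67), KCNH5 (-0.31), KCNH6 (-0.28), KCNH7 (-0.25), KCNIP3 (-0.44), KCNJ12 (-0.66), KCNJ14 (-0.19) and KCNQ3 (-0.70). Signs also turned, with no call in either fit, for KCNA2 (-0.50), KCND1 (-0.29), KCND3 (-0.56), KCNIP2 (-0.48), KCNJ16 (-0.43), KCNS1 (-0.19), KCNS2 (-0.48) and KCNT1 (-0.53). Among listed genes they turned for ANK3 (-0.26), CACNA1H (-0.26), DLG1 (-0.06), DLG4 (-0.23), SCN2A (-0.05) and SCN8A (-0.43, and -0.06 with the rod list mean). This centring subtracts a single value from each library, so it moved the change of every gene alike, and the median of all genes from -0.02 to -0.74. Rises smaller than this shift turned by that step alone, and the turned signs are no finding about single genes. Why the rod genes differed between the groups was not tested. Low members rest on few reads, such as between about 2.27 and 13.6 for KCNQ1 in PFA-fixed libraries.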
